A study of Cucumis sativus with 6 samples.

Results

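The genes described here are those whose transcripts stood higher in fruit phloem than in both pedicle phloem and stalk phloem of cucumber, while pedicle and stalk stayed close to each other. They number 268 of the 15720 genes in the deposited table, or 1.7%. They were chosen by measured values: after adding 5 to each organ's mean, fruit had to be at least 2 times pedicle and at least 2 times stalk, pedicle and stalk had to lie within 2-fold of each other, both fruit libraries had to be above all 4 other libraries, and the fruit mean had to reach 100. The difference of fruit from the other organs is therefore given as a description, with no test, because it is what the rule asked for.

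The study profiled phloem cut out of tissue sections by laser microdissection, a method in which a laser frees chosen cells from thin sections. All plants were of the cucumber inbred line 9930, and young fruits with their pedicles were taken 3 days after the flower opened. There were 2 libraries of fruit phloem, 2 of pedicle phloem and 2 of stalk phloem, described in the design text as biological replicates; how pedicle and stalk were told apart, and whether organs came from the same plants, is not given in the labels. RNA was amplified in successive rounds before sequencing. Expression is given in TPTM, read here as a score per 10000000 in each library, with no recorded correction for gene length, so that scores are compared between libraries and a high score of 1 gene against another is not a count of molecules.

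Phloem is the tissue that carries sugars, amino acids and signalling molecules through the plant, in sieve elements that depend on neighbouring companion cells. The young cucumber fruit is a sink: sugars arrive through the pedicle, largely as galactosyl oligosaccharides of the raffinose family in cucurbits, and leave the phloem inside the fruit. Pedicle and stalk phloem mainly pass this stream on, whereas fruit phloem is also where it is unloaded, which is the setting in which the organs are compared. The deposited table names genes by locus identifier only. None of its identifiers (0 of 15720) occurs in the RefSeq table of 23999 cucumber genes used for names, so the products of the members are not stated. For the same reason the labelled tissue was not checked against phloem markers, and the lists of markers of other cell types and of sugar unloading, growth and hormone genes could not be applied. In such dissected samples fewer cells of a type and less RNA per cell cannot be told apart.

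The members belong to a wider set of genes that stood higher in fruit. Fruit was at least 2 times both other organs in 840 genes, 5.34% of the table. In 623 of these pedicle and stalk lay within 2-fold of each other. Of the other genes, pedicle was more than 2-fold below stalk in 208 and stalk was more than 2-fold below pedicle in 9. Requiring both fruit libraries to exceed all others removed 107 genes and left 516, and the fruit mean of 100 TPTM removed a further 248. Both fruit libraries exceeded all others in 19.7% of the 15720 genes.

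The members were genes of moderate score, and their excess in fruit was mostly near the lower limit. Their fruit means ran from 100.5 to 6448.5 TPTM with a median of 336, where the median of the 9468 tested genes that also had a fruit mean of at least 100 TPTM was 350. Their median mean score was 103 TPTM in pedicle and 122 TPTM in stalk. The ratio of fruit to the higher of the other organs, each plus 5 TPTM, had a median of 2.37 and quartiles of 2.14 and 2.82. It lay between 2 and 2.5 in 156 members, between 2.5 and 4 in 91, between 4 and 8 in 11, and at 8 or more in 10, the highest being 43.2. Members with ratios of 8 or more had a median fruit mean of 165 TPTM, and those with ratios under 2.5 one of 381 TPTM. In 110 members all 4 pedicle and stalk libraries were at 100 TPTM or more, so these transcripts were plainly present in all 3 organs.

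**Figure D1:**
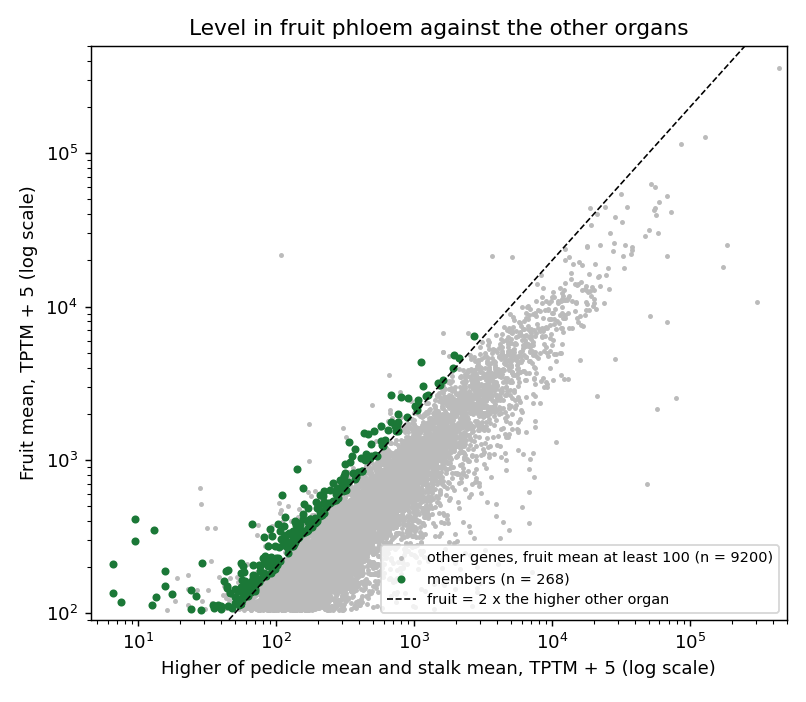
Each point is 1 gene with a fruit mean of at least 100 TPTM, with the higher of its pedicle and stalk means on the x axis and its fruit mean on the y axis, both as TPTM + 5 on log scales. The 268 members (green) lie on or above the dashed 2-fold line, most of them close to it, and a small group with pedicle and stalk scores near 0 lies far to the left.

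Together the members took 1.61% and 1.81% of all expression in the fruit libraries, against 0.646% and 0.502% in the pedicle libraries and 0.648% and 0.668% in the stalk libraries. The means were 1.71% ± 0.137 in fruit, 0.574% ± 0.102 in pedicle and 0.658% ± 0.014 in stalk (SD, n = 2 each). The fruit libraries did not overlap with the others, as the rule fixes.

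The members with the highest fruit scores exceeded the other organs by modest factors and were well expressed in all of them. Csa2G036620 had 6541 and 6356 TPTM in fruit, 2808 and 2082 TPTM in pedicle and 2711 and 2665 TPTM in stalk. Its fruit libraries agreed closely, and pedicle and stalk were alike. Csa4G000810 had 5000 and 4622 TPTM in fruit, against 1388 and 1021 in pedicle and 1807 and 2088 in stalk. Csa6G500720 stood out among these by its ratio of 3.88, with 4387 and 4257 TPTM in fruit, 787 and 581 in pedicle and 1278 and 943 in stalk. On the log2(TPTM + 5) scale its fruit score was 2.67 ± 0.25 above pedicle and 1.97 ± 0.25 above stalk (difference ± SE of the limma fit). Its pedicle mean was the lowest. The pedicle minus stalk difference was -0.69 ± 0.25, with an adjusted limma p of 0.0989, so pedicle and stalk were not told apart by that fit.

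Other members of high score were less even between libraries. Csa2G037250 had 3841 and 5314 TPTM in fruit, 1785 and 1049 in pedicle and 2098 and 2104 in stalk. Csa4G052720 had 5136 and 2739 TPTM in fruit, 1827 and 1356 in pedicle and 1201 and 2593 in stalk, so that the lower fruit library barely exceeded the higher stalk library. Csa6G149430 had 3078 and 3568 TPTM in fruit, 1809 and 1398 in pedicle and 1579 and 1534 in stalk. Its ratio of 2.07 was among the smaller ones of the members, and pedicle and stalk scores overlapped. Under the other scalings of the libraries described below, Csa6G149430 never met the rule. Csa2G037250 and Csa4G052720 met it there under quantile normalisation only.

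A group of members was nearly silent outside fruit. In 8 members the pedicle and stalk means were both under 10 TPTM, and 7 members were listed at 0 in at least 1 pedicle or stalk library. The 10 members with ratios of 8 or more hold all 8 of these. Csa7G336480 and Csa7G336450, neighbours among the identifiers of the deposited table, had the largest ratios, 43.2 and 32.0. Csa7G336480 had 739 and 72 TPTM in fruit, 0 and 2 in pedicle and 1 and 8 in stalk. Csa7G336450 had 348 and 58 TPTM in fruit, 1 and 0 in pedicle and 2 and 1 in stalk. Both were present in both fruit libraries and much higher in replicate 1.

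The large ratios of 4 further members came from 1 fruit library each. Csa4G333620 had 569 and 10 TPTM in fruit, 0 and 4 in pedicle and 5 and 4 in stalk. Csa3G026660 had 247 and 15 TPTM in fruit and 0 and 3 in pedicle, and was listed at 0 in both stalk libraries. These were high in fruit replicate 1 and low in replicate 2. The reverse held for Csa7G037610, with 13 and 676 TPTM in fruit, 4 and 10 in pedicle and 9 and 7 in stalk. Csa6G358680 likewise had 18 and 275 TPTM in fruit, 14 and 7 in pedicle and 9 and 9 in stalk. Without their high fruit library none of these 4 met the rule. In all, 6 of the 10 members with ratios of 8 or more had fruit libraries over 5-fold apart, 4 of them higher in replicate 1.

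The remaining members of this class had fruit libraries closer together. Csa6G490780 had 190 and 178 TPTM in fruit, 2 and 19 in pedicle and 7 and 5 in stalk. Csa6G084600 had 119 and 127 TPTM in fruit, 1 and 11 in pedicle and 6 and 11 in stalk. Csa3G827250 had 107 and 108 TPTM in fruit, 11 and 0 in pedicle and 8 and 7 in stalk. In these 3, whose fruit libraries were within 1.1-fold of each other, every fruit score was far above every other score. Csa3G231930 lay in between, with 65 and 160 TPTM in fruit, 0 and 1 in pedicle and 2 and 3 in stalk. Csa3G827250, Csa6G084600 and the other members named here only because their ratio reached 8 were picked after their values were seen.

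**Figure D2:**
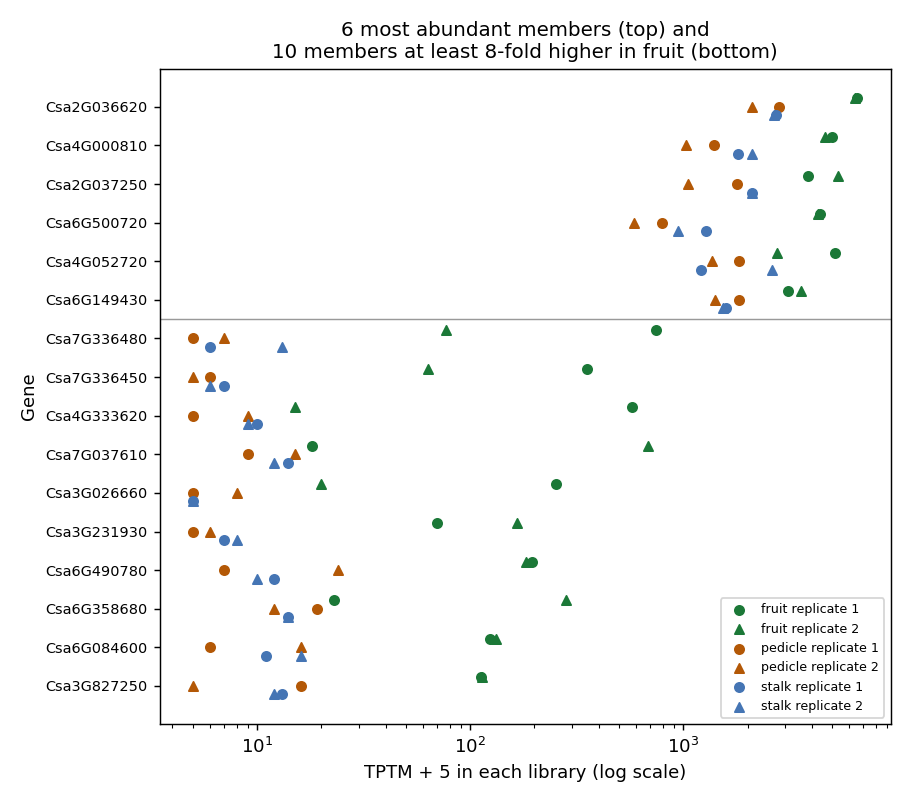
Scores of single libraries as TPTM + 5 on a log x axis for the 6 members with the highest fruit means (above the line) and the 10 members with ratios of 8 or more (below it). Colours mark the organs, circles replicate 1 and triangles replicate 2. The upper genes are well expressed in all organs, whereas in the lower genes pedicle and stalk stay near 0 and the fruit libraries often lie far apart.

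Agreement between the fruit libraries was looser than the organ means show. Taken singly, both fruit libraries were at least 2 times the higher of the other organ means in 140 members, only fruit replicate 2 was in 96 and only fruit replicate 1 in 32. The fruit libraries were over 1.5-fold apart in 88 members, over 2-fold apart in 34 and over 3-fold apart in 11. Shares of all genes beyond these folds were not counted. The median absolute log2 difference between the fruit libraries was 0.42 in the members. It was 0.32 in the tested genes with a fruit mean of at least 100 TPTM. Fruit replicate 2 was the higher library in 181 members, or 67.5%, where it was higher in 57.7% of the 9468 tested genes with a fruit mean of at least 100 TPTM. The rule does not use the sign of this difference, but it chose on the same scores, so the lean is not independent of the choice. With fruit replicate 1 left out 523 genes met the rule, and with fruit replicate 2 left out 237. Pedicle showed the opposite lean, with replicate 1 higher in 65.3% of the members against 47.9% of those 9468 genes. In stalk, replicate 1 was higher in 47.8% of the members and in 58.5% of those genes. Fruit replicate 2 and pedicle replicate 2 were thus the libraries that lay farthest apart over the members. The median score of all genes was 143 and 158 TPTM in the fruit libraries, 128 and 133 in pedicle and 140 and 131 in stalk. The part of these library medians in the leans was not tested.

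**Figure D3:**
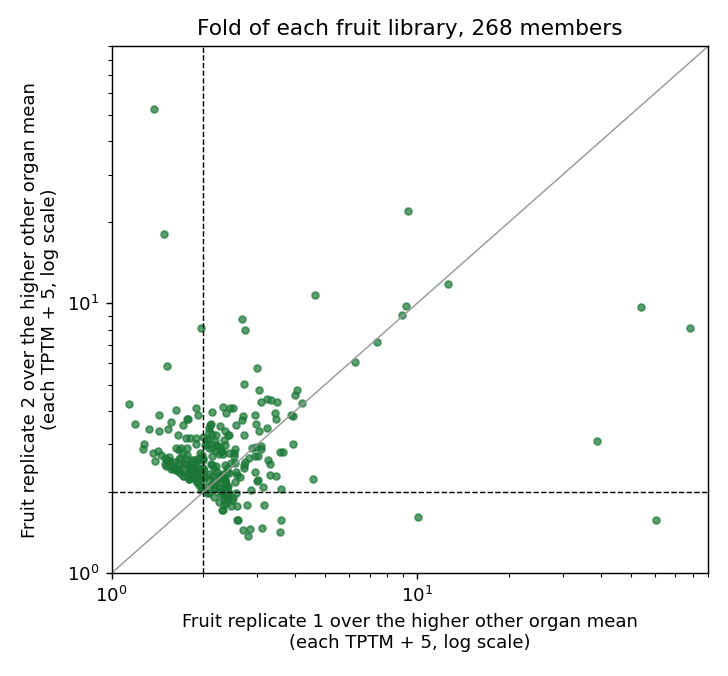
Each of the 268 members is placed by the fold of fruit replicate 1 (x) and fruit replicate 2 (y) over the higher of the pedicle and stalk means, each TPTM + 5, on log axes. Dashed lines mark 2-fold and the grey line equal folds. The 140 members in the upper right reach 2-fold in both libraries, the 96 in the upper left only in replicate 2, and the 32 in the lower right only in replicate 1.

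One model of all 6 libraries (limma on log2(TPTM + 5), with genes called where the p adjusted by Benjamini-Hochberg over 15381 genes was under 0.05) gives the background for these genes, all 268 of which passed its filter on low scores. Against pedicle, 237 members were called higher in fruit, where 15.1% of all tested genes were. Against stalk, 81 members were called higher in fruit, where 1.23% of all tested genes were. The members called against both numbered 80, with a background of 0.956%. The rule used the same contrasts, so these counts show only how many of the chosen differences exceed the pooled spread between replicates. The median difference of the members was 1.58 from pedicle and 1.33 from stalk on the log2 scale, where the medians of all tested genes were 0.21 and 0.12. Only 1 member, Csa6G421790, was called against stalk and not against pedicle, with 385 and 382 TPTM in fruit, 250 and 105 in pedicle and 135 and 57 in stalk.

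The test weighs the size of a difference against the spread of replicates, so the called members differ from the others in both by construction. The 80 called against both organs had a median fruit mean of 665 TPTM, a median ratio of 2.76 and a median fold between the fruit libraries of 1.25. The 30 called against neither had a median fruit mean of 217 TPTM, a median ratio of 2.16 and a median fold between the fruit libraries of 1.83. Csa4G304770 ranked first by its adjusted p against stalk, with 877 and 848 TPTM in fruit, 106 and 88 in pedicle and 127 and 145 in stalk. Its fruit score was 3.09 ± 0.29 above pedicle and 2.62 ± 0.29 above stalk on the log2 scale (SE), and both fruit libraries lay far above all others. Csa6G500720, Csa3G231930 and Csa6G490780 followed it. At the other end, Csa2G353500 had 125 and 144 TPTM in fruit, 5 and 65 in pedicle and 53 and 44 in stalk, a difference from stalk of 1.38 ± 0.72. Csa2G417830 had 57 and 180 TPTM in fruit, 22 and 38 in pedicle and 56 and 38 in stalk, a difference from stalk of 1.06 ± 0.55. Its lower fruit library was within 1 TPTM of a stalk library.

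The calls, over all genes as among the members, moved with single libraries. In place of 81 members, 13 were called when fruit replicate 1 was left out, 1 when fruit replicate 2 was, and 2 when either of the stalk replicates was. Leaving out a pedicle replicate raised the number to 182 (replicate 1) and 183 (replicate 2). Over all tested genes the calls between fruit and stalk numbered 453 with all libraries, 174 and 80 when fruit replicates 1 and 2 were left out in turn, 27 and 33 for stalk replicates 1 and 2, and 970 and 977 for pedicle replicates 1 and 2. Against pedicle, 149 members were called in place of 237 when fruit replicate 1 was left out and 97 when fruit replicate 2 was, while over all genes 1811 and 1793 were called in place of 3474. These counts over all genes take both directions, whereas every member called was higher in fruit. With all libraries, 189 of the 453 genes and 2315 of the 3474 were higher in fruit. Fits with fewer libraries have fewer degrees of freedom, and a lone library of an organ is assumed there to vary like the others. With 2 fruit libraries against 4 others, an exact permutation test of a single gene could not go below a one-sided p of 0.0667 over its 15 arrangements, so none was made.

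Genes were also chosen anew from 1 replicate of each organ, so that the other replicate had no part in that choice. All libraries took part in choosing the members, so this describes other sets of genes and is no check of the members themselves. With the rule applied to replicate 1 of each organ alone, 203 genes were chosen. In replicate 2 fruit was above both other organs in 185 of them, or 91.1%, and at least 2-fold above both in 95, or 46.8%. Among the 9145 genes that reached 100 TPTM in fruit replicate 1, the same held for 50.2% and 7.12%. The median log2 ratio of fruit to the higher other organ was 1.27 in the choosing libraries and 0.96 in the unused ones.

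The other way round the excess shrank more. Replicate 2 alone chose 627 genes, in which the median log2 ratio was 1.24. In replicate 1 fruit was above both other organs in 455 of these, or 72.6%, and at least 2-fold above both in 100, or 15.9%, with a median log2 ratio of 0.39. Among the 9572 genes that reached 100 TPTM in fruit replicate 2 the shares were 37.1% and 3.6%, with a median of -0.18. Of the genes chosen in a single replicate, 115 of 203 and 194 of 627 were members. In both directions the chosen genes stayed above this background in libraries that had not chosen them, and most did not keep a 2-fold excess there. The background asked only for the fruit score. It was not limited to genes with pedicle and stalk within 2-fold, as the chosen genes were, so the gap does not measure the fruit excess alone. Replicate numbers served only to split the libraries. This comparison was added after the data were seen and has 1 library per organ, so no test was made. It used the scores as deposited only. TMM factors, by which scores are divided when rescaled, were 1.133 in fruit, 0.9677 in pedicle and 0.9585 in stalk for replicate 2. For replicate 1 they were 1.02, 0.9203 and 1.013. The part of scaling in the unequal outcome of the 2 directions was not tested.

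**Figure D4:**
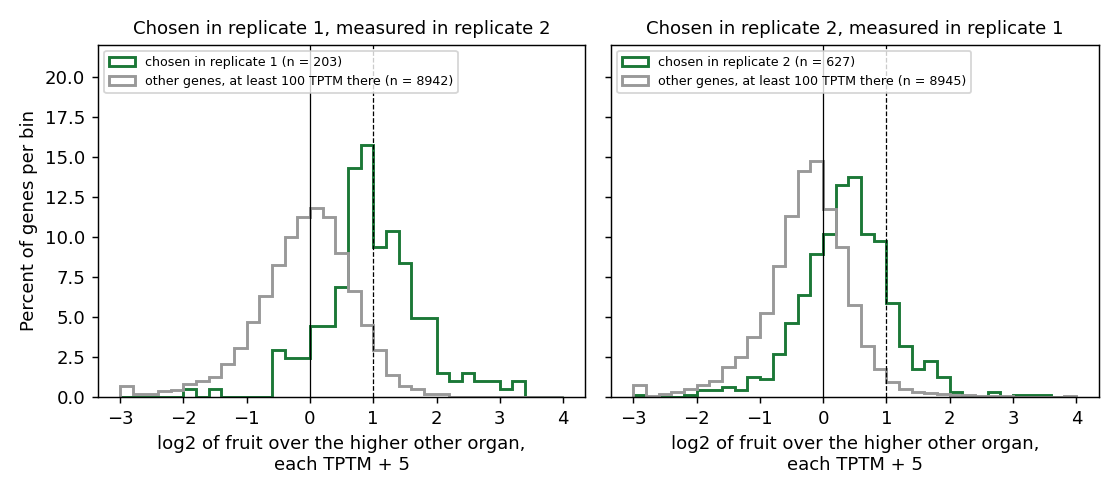
Distribution of the log2 ratio of fruit to the higher of pedicle and stalk (each TPTM + 5) in the replicate that was not used to choose genes, as percent of genes per bin; the outermost bins take all values beyond them. Green lines show the 203 genes chosen in replicate 1 (left) and the 627 chosen in replicate 2 (right), and grey lines the other genes with at least 100 TPTM in the choosing fruit library. The solid line marks equality and the dashed line 2-fold; the green curves lie right of the grey ones, with medians of 0.96 and 0.39.

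Within the limit of 2-fold, pedicle was more often the lower of the other organs. The pedicle mean was below the stalk mean in 184 members, above it in 82 and equal in 2. Pedicle was thus lower in 68.7% of the members, against 48.8% of the 11821 other tested genes whose pedicle and stalk means lay within 2-fold. Members and other genes come from the same 6 libraries, and no test was made of this difference. The shares were 64.2% and 44.9% with TMM factors, 61.9% and 42.3% with quantile normalisation and 64.9% and 45.6% with each library scaled to its median gene, so the lean did not turn under these scalings. In the fit of all libraries 2 members were called lower in pedicle than in stalk and 0 higher in pedicle, where 8.88% and 4.24% of all tested genes were called, a contrast that the rule also limits. At an unadjusted p under 0.05, 4329 of the tested genes differed between pedicle and stalk in either direction. Csa3G740210 had 2721 and 2566 TPTM in fruit, 647 and 662 in pedicle and 1398 and 1101 in stalk. Csa5G202370 had 1118 and 1238 TPTM in fruit, 169 and 198 in pedicle and 395 and 334 in stalk. In both genes the organs' libraries did not overlap, with pedicle lowest and fruit highest, the latter as the rule requires.

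The thresholds cut through a continuous range. Just inside the 2-fold limit, Csa1G004050 had 621 and 647 TPTM in fruit, 249 and 305 in pedicle and 370 and 259 in stalk, and Csa1G598850 had 803 and 1321 in fruit, 230 and 361 in pedicle and 453 and 604 in stalk. Just outside it were Csa6G067360, with 1055 and 1366 TPTM in fruit, 478 and 547 in pedicle and 490 and 716 in stalk, and Csa7G368130, with 251 and 346 in fruit, 189 and 105 in pedicle and 137 and 155 in stalk.

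At the limit between pedicle and stalk, the members Csa1G596420 (means of 7 TPTM in pedicle and 19 in stalk) and Csa5G202370 (183.5 and 364.5) lay inside, and Csa3G625640 (103 and 214) and Csa4G641590 (24 and 54) outside. At the limit on the fruit mean, Csa7G063950 and Csa1G043020 were members with 100.5 and 101 TPTM, and Csa1G495290 and Csa6G524620 were left out with 98 and 97 TPTM.

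How many genes set fruit apart upward rather than downward depended on scaling. The same thresholds turned round, with fruit at least 2-fold below both other organs and those at 100 TPTM or more, gave 173 genes, against the 268 members. With TMM factors the counts were 165 higher and 229 lower in fruit, with quantile normalisation 177 and 224, and with median scaling 148 and 243. The order of the counts thus turned under all 3 scalings. As deposited, the median log2 difference of all tested genes was 0.21 between fruit and pedicle and 0.12 between fruit and stalk, and TMM factors brought both close to 0, at 0.03 and 9.67e-05. With pedicle in the place of fruit the rule gave 344 genes higher and 658 lower, and with stalk 116 higher and 72 lower. None of these counts was tested against another.

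**Figure D5:**
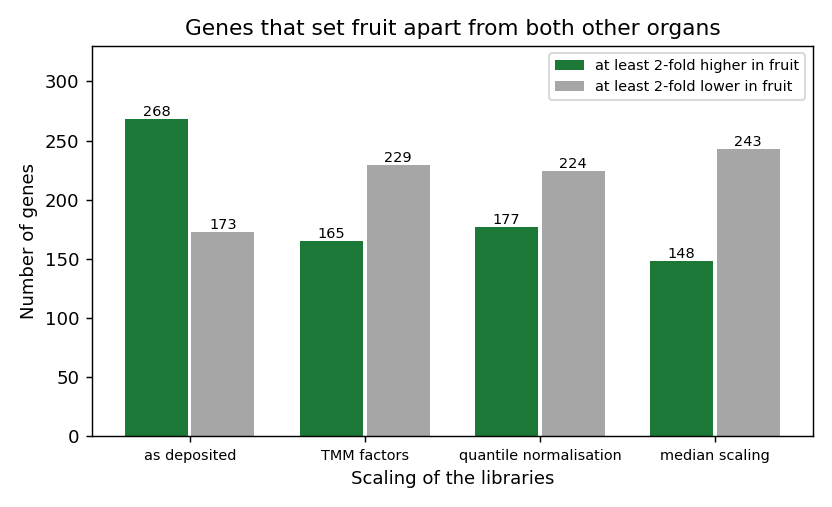
Number of genes at least 2-fold higher in fruit than in both other organs (green) and at least 2-fold lower (grey), by the same thresholds, under 4 scalings of the libraries. As deposited 268 genes are higher and 173 lower; under the other scalings fewer genes are higher than lower.

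Some members met the rule whichever way the libraries were treated. The same rule was applied to the same libraries, so remaining a member mostly reflects distance from its thresholds and is no independent check. The ratios of the members that remained are likewise not independent of it. Of the 268, 143 remained members under all 3 other scalings, 92 under none of them, and 78 when each library in turn was left out. The 72 that did so under all 9 settings had fruit means from 118 to 6448.5 TPTM with a median of 368, and ratios from 2.23 to 6.15 with a median of 2.71. The other 196 had a median ratio of 2.21, and all members with ratios above 6.15 were among them. Of these, Csa6G490780, Csa6G084600 and Csa3G164530 (12.2, 9.48 and 7.29) met the rule under every scaling and without either fruit library. They failed only without a pedicle or stalk library, where pedicle and stalk were no longer within 2-fold. The rest of those above 6.15 failed under a scaling or without a fruit library. Those of highest score among the 72 were Csa2G036620, Csa4G000810 and Csa6G500720, described above. Next came Csa4G152270, with 2630 and 3405 TPTM in fruit, 1301 and 758 in pedicle and 907 and 1407 in stalk. Csa4G038760 had 2912 and 2250 TPTM in fruit, 1032 and 564 in pedicle and 548 and 674 in stalk. Csa7G448910 had 2653 and 2433 TPTM in fruit, 1091 and 697 in pedicle and 833 and 816 in stalk. In each of these the fruit libraries were above the other 4, as the rule requires of every member. The genes of this paragraph were picked after their values were seen.

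The members were spread over the locus numbering much as the table is. In cucumber locus identifiers the digit after the species prefix stands for the chromosome. Members made up between 1.21% of the genes with digit 4 (23 of 1899) and 2.14% of those with digit 7 (33 of 1542), around the 1.7% of the whole table, with the most, 60, among the 3306 genes with digit 3. Of the 536 neighbours of members in the ordered identifiers, 12 were members themselves, or 2.24%, which is near the 1.7% background. For genes higher in pedicle by the same thresholds the share was 6.12% against 2.19% of the table.

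There were 5 runs of members with neighbouring identifiers, of 11 members in all. Neighbouring means next to each other among the identifiers of the deposited table, so loci absent from it may lie between. The longest held Csa2G009440, with 2117 and 1673 TPTM in fruit, 595 and 645 in pedicle and 962 and 787 in stalk, Csa2G009450, with 3451 and 2871 in fruit, 1494 and 578 in pedicle and 1210 and 1734 in stalk, and Csa2G009470, with 93 and 140 in fruit, 42 and 33 in pedicle and 55 and 48 in stalk. Their ratios, 2.16, 2.14 and 2.15, were alike although their scores were not, but 156 of the members had ratios between 2 and 2.5. With TMM factors or median scaling none of this run met the rule. The genes on either side, Csa2G009430 with 877 and 853 TPTM in fruit, 858 and 1134 in pedicle and 738 and 561 in stalk, and Csa2G009480 with 58 and 56 in fruit, 8 and 16 in pedicle and 81 and 56 in stalk, were not higher in fruit than in both other organs. Csa1G042550 and Csa1G042560, with fruit means of 280.5 and 1659.5 TPTM and ratios of 2.45 and 2.28, formed another pair. Csa5G151510 and Csa5G151520 did so with fruit means of 387 and 380 TPTM and ratios of 2.3 and 2.19. Neither of these met the rule with TMM factors or median scaling, whereas Csa1G042550 and Csa1G042560 met it under each of the other scalings. How reads shared between neighbouring genes of like sequence were counted is not given in the sources used here.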

How the data were processed

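Phloem RNA of 2 fruit, 2 pedicle and 2 stalk libraries was analysed. The submitters' processing notes name TopHat and HTSeq. Their versions, the build and the annotation were not given in the sources used here. Per library, the authors deposited whole-number expression scores (TPTM) that sum to just under 10000000 (9991842 to 9995581) and are therefore normalised, rounded values and not read counts. The reads behind a score are not given, so no counting interval is printed. All columns matched a library by label.

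Members were found by the rule on organ means given in the report. Scores were fitted as log2(TPTM + 5) with limma 3.58.1 (R 4.3.3; 1 term per organ, intensity trend, 3 residual and 7.76 prior degrees of freedom, shared by all organs) for the 15381 genes that reached 10 TPTM in 2 or more libraries, and p-values were Benjamini-Hochberg adjusted over all of them. Such differences understate changes of low scores. The p-values measure the spread between the libraries. The code was tested on simulated data.

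Alternatives were other pseudocounts, thresholds, filters and scalings (trimmed mean of M-values, quantile, median), each library left out, and the replicate number as a block. The members and lists were chosen with earlier results of these data known. Genes were named by rank of fruit mean, ratio, distance between fruit libraries, limma p against stalk, closeness to a threshold and runs of neighbouring identifiers; others are marked as picked after their values were seen. No genome or sequence was used here.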

Additional observations from a re-analysis of the deposited data

How the results depend on the processing

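The number of members, 268, followed the fold asked of fruit and the scaling: 919 at 1.5-fold, 50 at 3-fold, 21 at 4-fold, 165 with TMM factors, 177 with quantile normalisation and 148 with median scaling. It stayed within 1.5 times under the other pseudocounts, limits between pedicle and stalk, and fruit minimums. The members' share of fruit expression, 1.71%, was 9.12% at 1.5-fold, 0.281% at 3-fold, 0.0559% at 4-fold, 1.33% and 2.77% with pedicle and stalk within 1.5-fold and 3-fold, 1.19% with TMM factors, 2.94% with quantile normalisation and 0.897% with median scaling. With 1 library left out in turn, 237 to 523 genes met the rule (523 without fruit replicate 1), taking 1.5% to 5.0% of fruit expression. The cause of these changes was not tested.

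With 1 library left out, the genes called numbered 1793 to 3685 between fruit and pedicle (3474 with all), 27 to 977 between fruit and stalk (453) and 482 to 2610 between pedicle and stalk (2018). The members called numbered 97 to 209 (237 with all), 1 to 183 (81) and 0 to 10 (2). With only the compared organs fitted, 2294 genes were called between fruit and pedicle, 1000 genes and 188 members between fruit and stalk, and 1783 genes and 1 member between pedicle and stalk. Without the intensity trend, 133 genes and 13 members were called between fruit and stalk and 1544 genes and 0 members between pedicle and stalk. With the replicate block, 228, 55 and 1 members were called, of 3105, 337 and 1778 genes over the table. All counts of genes called in this paragraph take both directions, whereas every member called between fruit and another organ was higher in fruit. Across genes, the replicate 1 minus replicate 2 differences of a pair of organs had correlations of -0.0487 between fruit and pedicle, 0.0103 between fruit and stalk and -0.117 between pedicle and stalk, so the numbers were not taken to pair the libraries. With the pedicle numbers crossed in the replicate block, a setting added after seeing the data, 240, 103 and 3 members and 3651, 582 and 2093 genes were called. Over 17 settings no member's difference of fruit from pedicle or from stalk turned negative. The rule fixes that direction in all but the rescaled data. There the TMM and median factors lay between 0.9203 and 1.141. Such factors are too close to 1 to turn the members' lowest log2 differences, 0.949 from pedicle and 0.931 from stalk. These settings are therefore no check of the direction.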

Other observations

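Outside the members, 7 genes with a fruit mean of at least 100 TPTM also had fruit at 8 times both other organs or more, and in all 7 stalk was more than 2-fold above pedicle, which is outside the rule. In 6 of them both fruit libraries were above all others. The genes were picked after their values were seen. Csa4G154320 had 1892 and 1513 TPTM in fruit, 1 and 1 in pedicle and 142 and 196 in stalk. Csa2G361700 had 305 and 407 TPTM in fruit, 0 and 1 in pedicle and 24 and 38 in stalk. In the other 5 the fruit libraries lay farther apart. Csa3G778180 had 970 and 326 TPTM in fruit, 0 and 1 in pedicle and 28 and 18 in stalk. Csa3G026150 had 908 and 112 TPTM in fruit, 1 and 1 in pedicle and 9 and 38 in stalk. Csa2G177210 had 60 and 272 TPTM in fruit, 8 and 20 in stalk, and was listed at 0 in both pedicle libraries.

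Csa3G105950, which also failed the condition on single fruit libraries, had its excess in 1 library. It had 6 and 43285 TPTM in fruit, 32 and 7 in pedicle and 174 and 32 in stalk. Csa7G037600, the neighbour by number of the member Csa7G037610, had 584 and 126 TPTM in fruit, 6 and 1 in pedicle and 36 and 17 in stalk. It was thus higher in fruit replicate 1, whereas Csa7G037610, with 13 and 676 TPTM, was higher in fruit replicate 2.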
